A study of Mus musculus with 12 samples.

Results

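The genes of the cytosolic ribosomal proteins were followed in mouse embryonic stem cells that lost the kinase Cdk13. Members were all exon parts whose gene name was Rpl or Rps followed by a number, with the paralogue suffixes in use, or Rplp0, Rplp1, Rplp2 or Rpsa. This gave 417 of the 138745 exon parts in the authors' deposited table, in 82 of its 15139 genes. There were 50 genes with large-subunit names and 32 with small-subunit names. Of the 82 genes, 7 were paralogues of the standard set (Rpl22l1, Rpl36al, Rpl39l, Rpl3l, Rpl7l1, Rps27l and Rps4y2). Rpl18 and Rps28, which also encode cytosolic ribosomal proteins, were not analysed here.

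Polyadenylated RNA came from V6.5 cells (strain background C57Bl/6-129), genotype Cdk13-/- with a transgene for Flag- and HA-tagged Cdk13 that is expressed in the presence of doxycycline (Dox). Every group carried this knockout and this transgene: cells kept in 1 ug/mL Dox, cells 48 h after its withdrawal, and cells 72 h after it. Clones 11-8 and 14-1 each gave 2 libraries per group, so that each of the 3 groups had 4 libraries and the whole set 12. No cells without the transgene were taken off Dox, so loss of Cdk13 and removal of the drug cannot be told apart.

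Both times were compared with the same Dox-treated libraries, and values from 48 h and 72 h are set side by side for that reason only. All log2 fold changes, adjusted p-values and classes below are those of the authors' deposited table, computed with DEXSeq as cells without Cdk13 over cells with it. An exon part is a segment of a gene that DEXSeq counts by itself, and its value is a change in its use relative to the rest of the gene, not in the level of the gene's RNA. A part was called higher or lower where the authors' adjusted p was below 0.05, and a part with no adjusted p was counted as not tested. The table gives no value per library, so the spread over the 4 libraries and the depth behind a value are unknown here. Cdk13 itself had no tested part at 48 h, and at 72 h 1 of its parts was called in the authors' deposited table, the intronic polyadenylation part E022 at 0.95 (authors' adjusted p 0.010), so its loss could not be checked from relative use. Of the embryonic stem cell markers, 7 of 10 had a tested part at both times, including Pou5f1 and Nanog, against 0 of 6 differentiation markers at 48 h and 5 of 6 at 72 h. Marker levels cannot be read from relative use.

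Cytosolic ribosomal proteins are the protein part of the ribosome: the small subunit decodes the mRNA, and the large subunit forms the peptide bond and holds the stalk proteins that recruit translation factors. Their genes are short, are among the most strongly transcribed in growing cells, and often host small nucleolar RNAs in their introns. Many of their mRNAs begin with a C followed by an unbroken run of C and T, the terminal oligopyrimidine (TOP) motif, through which the mTOR pathway controls their translation.

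The annotated starts are shown for members whose first part rose or fell at 72 h and that carry such a start, and for Rps15a, a gene with a graded change along its length. Rps25 and Rps27l, also graded at both times, have annotated starts without such a motif. Rps21 and Rpl35a have further annotated starts without it, which are not shown. Each line gives 10 bases before and 20 bases from the RefSeq start (GRCm38.p6), 5′ to 3′ on the gene's strand. Capitals mark the unbroken run of C and T that spans the start. Whether a called first part holds the annotated start was not tested.
Rplp2 (chr7:141447641-141447670, plus strand): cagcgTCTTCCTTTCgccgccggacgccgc
Rps6 (chr4:86857348-86857377, minus strand): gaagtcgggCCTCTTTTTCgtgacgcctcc
Rps21 (chr2:180257369-180257398, plus strand): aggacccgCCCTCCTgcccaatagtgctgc
Rpl38 (chr11:114668570-114668599, plus strand): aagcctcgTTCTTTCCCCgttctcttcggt
Rpl35a (chr16:33056472-33056501, plus strand): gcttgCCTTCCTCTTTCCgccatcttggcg
Rps15a (chr7:118116128-118116157, minus strand): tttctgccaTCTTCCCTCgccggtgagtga
Rps3 and Rpl27, whose first parts fell at 72 h, are given for contrast, since their annotated starts do not begin with a C followed by 4 bases that are C or T.
Rps3 (chr7:99483690-99483719, minus strand): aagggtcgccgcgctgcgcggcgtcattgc
Rpl27 (chr11:101442235-101442264, plus strand): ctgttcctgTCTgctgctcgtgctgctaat
RefSeq promoter windows were matched to 61 of the 82 genes, with 73 entries. A C at the start followed by 4 bases that are C or T was found in 13 of the 73 entries (17.8%), against 2.51% of 32851 entries over all genes. This count depends on the exact annotated start base. Entries of Rpl34, Rps24 and Rps9, for instance, have runs of 13, 9 and 9 such bases across the start and are not counted. In the windows from 250 bases before to 50 bases after the start, searched on both strands, CCGGAAG was found in 37.0% of member entries and 8.86% of all entries. AAGATGGC was found in 11.0% and 2.75%, and GGGCGG in 60.3% and 35.7%. These matches are a description of sequence and not of factor binding.

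Changes in relative use were frequent in these genes and small. At 48 h, 287 of the 417 member parts were tested (68.8%, against 30.5% of all parts) and 28 were called in the authors' deposited table, or 9.76% of those tested, against 1.62% of all tested parts. Of the 28, 9 were higher, where 0.964% of all tested parts were higher, and 19 were lower, where 0.633% of all were lower. The calls fell in 18 of 79 tested genes (22.8%), against 7.12% of all tested genes. A higher part was found in 8 genes, against 4.61% of all tested genes, and a lower part in 17, against 3.34%. In 7 genes both were found, against 0.982%.

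At 72 h, 410 of the 417 parts were tested (98.3%, against 76.1% of all parts) and 84 were called in the authors' deposited table, or 20.5%, against 3.6% of all tested parts. Of these, 38 were higher, where 2.33% of all tested parts were higher, and 46 were lower, where 1.28% of all were lower. They lay in 47 of 80 tested genes (58.8%), against 19.1% of all tested genes. A higher part was found in 30 genes, against 13.7% of all genes, and a lower part in 34 genes, against 9.44% of all genes. Both directions were found in 17 genes, against 4.09% of all genes. In all, 49 genes had a called part at either time and 16 at both, and 93 parts were called at either time. The 9 parts called at 48 h alone were all tested at 72 h as well. The same counts were not made over all genes, so these cannot be read as many or few. Both times share the Dox-treated libraries, so their calls are not independent.

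The median absolute log2 fold change of the called parts was 0.025 at 48 h and 0.031 at 72 h, against 0.080 and 0.16 for all called parts of the authors' deposited table. Of the member calls, 26 of 28 at 48 h (92.9%) and 63 of 84 at 72 h were below 0.1 in size, against 60.8% and 34.4% of all calls. Over every member value the median was 0.0017 at 48 h and 0.0014 at 72 h on the log2 scale, against 0.0025 and 0.0080 over the table. The smallest called change at 72 h was that of Rpl41 E003, at 0.0018, and the largest was the fall of Rps3 E016, at -0.90. At 48 h the called part nearest the threshold was Rpl9 E007 (-0.019, authors' adjusted p 0.0475) and the nearest part outside it was Rps3a E003 (-0.038, 0.0504). At 72 h these were Rpl6 E005 (0.033, authors' adjusted p 0.0440) and Rps9 E003 (0.0055), whose adjusted p was just above the threshold.

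**Figure D1:**
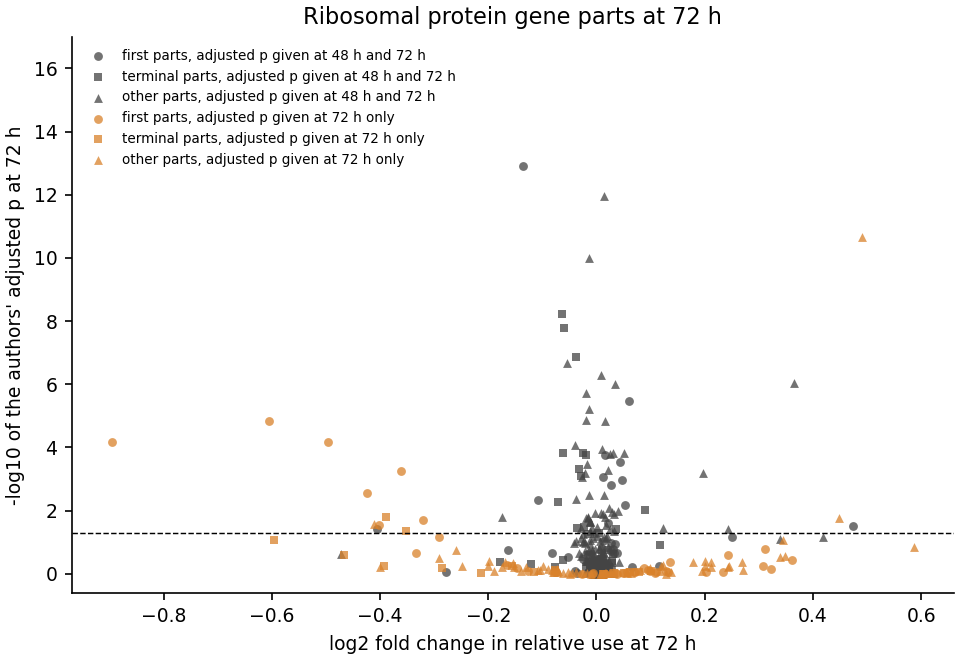
Each point is 1 of the 410 ribosomal protein gene parts tested at 72 h, with its log2 fold change in relative use on the horizontal axis and -log10 of the authors' adjusted p on the vertical axis; colour shows whether the part was also tested at 48 h, shape shows its class, and the dashed line marks an adjusted p of 0.05. Parts tested at both times stay mostly within 0.1 of zero even where the adjusted p is very low, while all 12 called parts that were tested at 72 h only lie beyond 0.3.

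Among genes of the small subunit, 15 parts were called at 48 h in the authors' deposited table, 13.6% of those tested against 1.62% of all tested parts. Of these, 4 were higher (3.64%, against 0.964% of all) and 11 lower (of 110 tested, against 0.633% of all), in 9 of 30 tested genes (against 7.12% of all genes). At 72 h 33 were called, 22.8% against 3.6% of all. Of these, 12 were higher (8.28%, against 2.33%) and 21 lower (14.5%, against 1.28%), in 17 of 30 genes (56.7%, against 19.1%). In Rps15a the log2 fold changes in relative use ran downhill from the 5′ to the 3′ end. At 72 h they were 0.028 for E004, -0.0030 for E003, -0.027 for E002 and -0.029 for the terminal part E001, all 4 called. At 48 h the same parts stood at 0.027, -0.00082, -0.026 and -0.032, and the last 2 of these were called. The first part E005, tested only at 72 h, stood at 0.038 with an adjusted p of 0.974. At 48 h both called parts were thus lower ones near the 3′ end, and the rise of E004 passed the threshold at 72 h alone.

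Opposite ends also differed in 2 short genes of the small subunit in the authors' deposited table. In Rps25, a protein used by several viral internal ribosome entry sites, E002 rose by 0.016 and the terminal part E008 fell by 0.064 (authors' adjusted p 6.01e-09) at 72 h. E008 was also called at 48 h, at -0.043. In Rps29, which has only 2 listed parts, the first part rose by 0.014 and 0.016 at 48 h and 72 h, and the terminal part fell by 0.017 and 0.020. With 2 listed parts a lower share of one raises the other, so these calls are not separate changes.

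Rps16 and Rps23 each had 1 part far from the rest of the gene in the authors' deposited table. Rps16 had 4 called parts at 72 h, of which the 8-base part E006 (chromosome 7, 29136113 to 29136120, plus strand) rose by 0.49 with an authors' adjusted p of 2.22e-11, although it was not tested at 48 h. The other 3 called parts of Rps16 fell by between 0.019 and 0.028, and E007 among them was also called at 48 h, at -0.018. In Rps23, which encodes a protein of the decoding centre, the first part E002 fell by 0.36 at 72 h, E003 next to it rose by 0.0088 (authors' adjusted p 4.96e-07) and the terminal part E005 fell by 0.037 (1.34e-07). E003 and E005 were also called at 48 h, at 0.0092 and -0.025. The values of E003 were the smallest called rises of any small-subunit part.

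Calls in other small-subunit genes were fewer per gene. At 72 h, Rps27 E003 fell by 0.014 (authors' adjusted p 9.72e-11 in the authors' deposited table), Rps3a E003 by 0.055 (2.12e-07), Rps13 E004 by 0.016 and Rps2 E011 by 0.011. At the same time Rps4x E018 rose by 0.014, Rps27a E011, in a gene that encodes a ubiquitin fusion, rose by 0.050, and Rps12 E006 rose by 0.24. The first parts of Rps3, Rps6 and Rps21 also fell at 72 h and are described with the other first parts. Rps24 E009 (-0.013) and the terminal part of the paralogue Rps27l (-0.022) were called lower at 48 h and not at 72 h, when they stood at -0.0047 and -0.012.

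**Figure D2:**
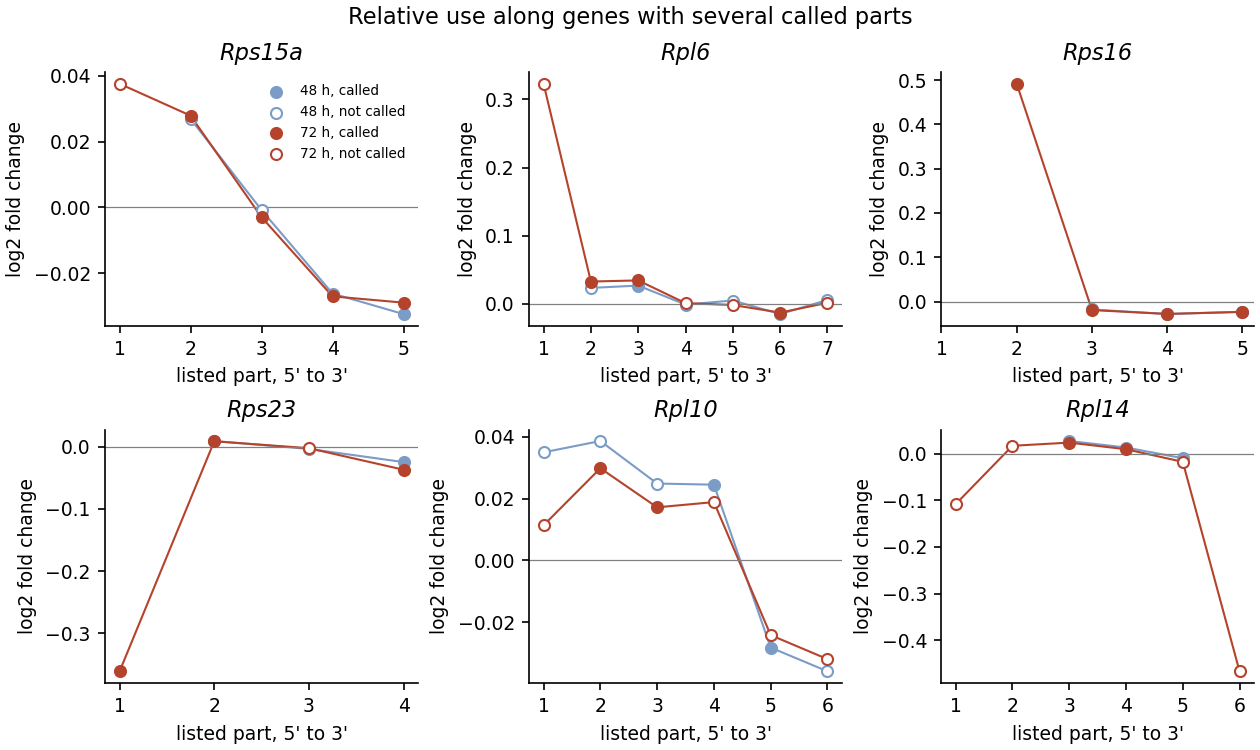
Each panel shows 1 of 6 genes with at least 4 calls over both times; the horizontal axis is the order of listed parts from 5′ to 3′, the vertical axis is the log2 fold change in relative use, blue is 48 h, red is 72 h, and filled points are called. Rps15a falls from left to right at 72 h, from 0.038 to -0.029, while Rps16 and Rps23 each have 1 part at 72 h far from the rest, at 0.49 and -0.36.

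Among genes with large-subunit names, 13 parts were called at 48 h in the authors' deposited table, 7.34% of those tested against 1.62% of all tested parts. Of these, 5 were higher (2.82%, against 0.964% of all) and 8 lower (4.52%, against 0.633%), in 9 of 49 tested genes (18.4%, against 7.12%). At 72 h 51 were called, 19.2% against 3.6% of all. Of these, 26 were higher (9.81%, against 2.33%) and 25 lower (9.43%, against 1.28%), in 30 of 50 genes (60.0%, against 19.1%). Rpl41, which encodes a very short basic peptide, had 4 called parts at 72 h: 0.043 in its first part E007, 0.12 in E004, 0.0018 in E003 and -0.033 in its terminal part E001. In Rpl32, E003 rose by 0.014 (authors' adjusted p 1.07e-12), E002 fell by 0.013 (6.23e-06) and the terminal part E001 fell by 0.060 (1.67e-08). Of these, E001 was also called at 48 h, at -0.044. In Rpl6, E005 and E006 rose by 0.033 and 0.034 (9.56e-07 for E006) and E013 fell by 0.013 at 72 h. Rpl6 E006 and E013 were also called at 48 h, at 0.027 and -0.015. These 3 genes shared higher use near the 5′ end and lower use nearer the 3′ end.

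Rpl10, a late-joining protein needed for subunit joining, and Rpl14 each had 2 called parts at each time in the authors' deposited table. In Rpl10, E005 (0.024) and E008 (-0.028) were called at 48 h, and E003 (0.030) and E004 (0.017) at 72 h. In Rpl14, E005 (0.027, authors' adjusted p 7.33e-05) and E007 (-0.0096) were called at 48 h, and E005 (0.024) and E006 (0.0097) at 72 h. Rpl31 fell in both of its 3′ parts, E008 by 0.019 (1.89e-06) and E009 by 0.039 (8.47e-05) at 72 h, with E009 at -0.044 and called at 48 h. In Rpl11, which with Rpl5 binds the p53 regulator Mdm2, E009 rose by 0.025, E002 fell by 0.011 and the terminal part E001 fell by 0.071 at 72 h.

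Rpl13a, Rpl34 and Rpl9 had the opposite order, with the higher part downstream of the lower one. In Rpl13a, E010 fell by 0.017 and the 3′-most listed part E007 rose by 0.20 (authors' adjusted p 0.00064 in the authors' deposited table) at 72 h, and E007 rose by 0.12 at 48 h. In Rpl34, E006 fell by 0.012 and the terminal part E001 rose by 0.037 at 72 h. In Rpl9, E007 fell by 0.019 and the terminal part E002 rose by 0.17 at 48 h, while at 72 h E002 stood at 0.12 with an adjusted p of 0.118 and E014 rose by 0.025. Rpl3 and Rpl23a had their higher call upstream. In Rpl3, which reaches the peptidyl transferase centre, E009 fell by 0.020 at 48 h and E019 rose by 0.021 at 72 h. In Rpl23a, E006 rose by 0.016 and E003 fell by 0.021 at 72 h.

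The remaining large-subunit calls at 72 h lay in 1 or 2 parts per gene in the authors' deposited table. Rpl19 E012 (0.0078), Rpl12 E014 (-0.015), Rpl30 E009 (0.012) and the terminal part Rpl38 E008 (-0.036) changed by small amounts. Larger falls were seen in Rpl24 E003 (-0.41), Rpl21 E019 (terminal, -0.35) and the terminal part of Rpl39 (-0.39), whose protein lines the peptide exit tunnel. That part of Rpl39 is 8205 bases wide. Rpl24, a protein of the subunit bridge, was also called lower in its alternative polyadenylation part E015 at 48 h (-0.034), the only member part of this class, where no such part was higher and 4.69% of all were lower, and E015 stood at -0.042 with an adjusted p of 0.102 at 72 h. The 13 listed parts of Rpl24 reach from the gene to 4 parts that lie farther downstream, of which E016 alone is 11024 bases wide, and whether these belong to 1 transcription unit was not tested.

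The acidic stalk proteins recruit elongation factors to the large subunit, and Rplp1 and Rplp2 form dimers on Rplp0. In the authors' deposited table the first parts of Rplp1 (E002, -0.50, authors' adjusted p 6.6e-05) and Rplp2 (E004, -0.61, 1.49e-05) fell at 72 h, and neither was tested at 48 h. In Rplp0 the 7-base part E009 fell by 0.013 at 72 h. The stalk genes therefore each had 1 called part at 72 h, all lower, with the first part involved in Rplp1 and Rplp2.

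Of the paralogues' tested parts in the authors' deposited table, 1 of 11 was called at 48 h (9.09%, against 1.62% of all tested parts), which was Rps27l E006. At 72 h, 2 of 26 were called (7.69%, against 3.6% of all). Both calls at 72 h were in Rpl7l1, where E013 rose by 0.039 and E006 fell by 0.17. Without the 7 paralogues, 27 parts were called at 48 h and 82 at 72 h. Rps4y2 had no tested part at either time. Outside the name rule, Fau, which encodes a ubiquitin-like fusion with a small-subunit protein, had 5 parts and none called, at 48 h or 72 h. Gnb2l1, the small-subunit scaffold protein Rack1, had 2 parts lower at 72 h, E020 (-0.20) and the terminal part E026 (-0.034, authors' adjusted p 0.0069). Among tested member parts that were not called, the largest value in the authors' deposited table was that of Rpl26 E005 at 48 h (-0.24, authors' adjusted p 0.778) and of Rpl7l1 E001 at 72 h (-0.60, 0.0867).

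First parts carried the largest falls. At 72 h, 82 first parts were tested; 9 were higher, where 5.33% of all first parts were higher, and 10 were lower, where 0.628% of all first parts were lower. At 48 h, 2 of 44 tested first parts were higher, where 6.11% of all first parts were higher, and none was lower, where 0.169% of all were lower. Member first parts made up 1.14% of the first parts tested at 72 h in the authors' deposited table and 22.2% of those called lower there (10 of 45).

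The falls at 72 h, in the authors' deposited table, were led by Rps3 E016 (-0.90, authors' adjusted p 6.51e-05; chromosome 7, 106631528 to 106631965, minus strand), whose protein lies at the mRNA entry channel. Rplp2 E004 (chromosome 7, 148633611 to 148633637, plus strand) and Rplp1 E002 (chromosome 9, 61761866 to 61762015, minus strand) came next. Rps6 E017, in the gene of the S6 kinase substrate, fell by 0.42 (0.0027; chromosome 4, 86503156 to 86503224, minus strand). These 4 values lie far outside the other tested parts of their genes, which ranged from -0.073 to 0.089 in Rps3, from -0.061 to -0.012 in Rplp2 and from -0.20 to 0.0078 in Rps6, with 1 other part at 0.0048 in Rplp1.

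Rpl8 E002 fell by 0.40 (authors' adjusted p 0.028; chromosome 15, 76734540 to 76734610, plus strand) in the authors' deposited table. Rps23 E002 fell by 0.36 (0.00054; chromosome 13, 91062805 to 91063102, plus strand) and the 9-base Rps21 E003 by 0.32 (0.019; chromosome 2, 179992163 to 179992171, plus strand). The first parts that had values at both times were Rpl21 E006, Rpl27 E004 and Rpl38 E003. Rpl21 E006 stood at -0.17 (authors' adjusted p 0.606) at 48 h and -0.41 (0.037) at 72 h. Rpl27 E004 stood at -0.013 (0.807) and -0.14 (1.24e-13), and Rpl38 E003, whose gene is known for a role in tissue patterning in mice, at 0.0078 (0.967) and -0.11 (0.0047). In Rpl21 the other first part, E002, stood at 0.24 and was not called. On the plus strand, Rpl21 E006 lies on chromosome 5 (147645143 to 147645316), and Rpl27 E004 and Rpl38 E003 lie on chromosome 11 (101303927 to 101303964 and 114529941 to 114529999).

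The 9 first parts that rose at 72 h changed by less, with Rpl12 E005 the exception at 0.47 (authors' adjusted p 0.030) in the authors' deposited table; at 48 h it stood at 0.088 (0.614). Others were Rpl30 (0.048), Rpl41 (0.043), Rpl13 (0.027), Rpl35a (0.021), Rps29 (0.016) and Rpl36 (0.012). All 9 had been tested at 48 h, and that of Rps29 was called at that time too. Of the 10 genes with a lower first part, 7 had a RefSeq promoter, and 4 of the 7 began with a C followed by 4 bases that are C or T (Rplp2, Rps6, Rps21 and Rpl38). Of the 9 with a higher first part, 4 had a RefSeq promoter and 1 began that way (Rpl35a). A gene was counted where any of its annotated starts matched, and Rps21 and Rpl35a also have annotated starts that did not. These counts are too small to set one group apart from the other, and whether the called parts hold these starts was not tested.

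**Figure D3:**
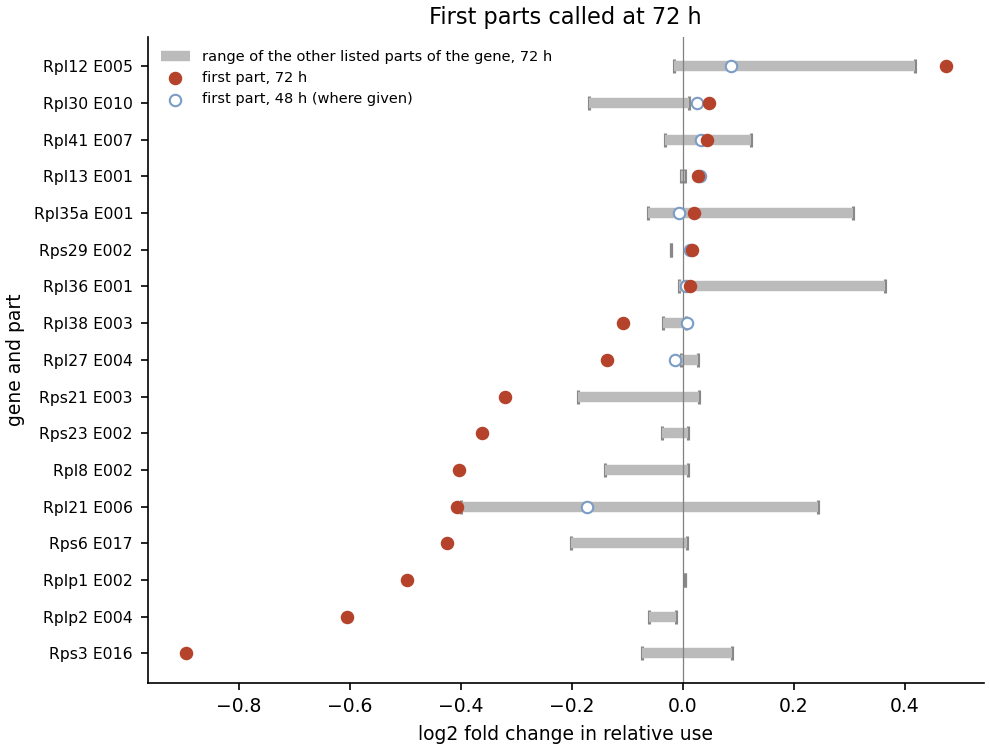
Each row is 1 of 17 of the 19 first parts called at 72 h, with its log2 fold change in relative use on the horizontal axis at 72 h (red) and 48 h (blue ring, where given); the grey bar spans the other listed parts of the same gene at 72 h. The lowest points, Rps3 at -0.90 and Rplp2 at -0.61, have no 48 h value, whereas the higher first parts all have one.

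Falls of first parts split by the part's testing at 48 h and by its number. Among first parts tested at 48 h, 9 of 44 were higher at 72 h (20.5%), where 12.3% of all such parts were higher, and 3 were lower (6.82%), where 0.506% of all were lower. Among first parts not tested at 48 h, none of 38 was higher at 72 h, where 1.9% of all such parts were higher, and 7 were lower (18.4%), where 0.688% of all were lower. Parts are numbered along the chromosome, so on the plus strand a first part numbered after E001 has another part of its gene upstream. Of 15 tested first parts numbered E001 on the plus strand, 3 were higher and none lower, with a median of 0.013 in the authors' deposited table. Of 30 tested with a later number, 1 was higher and 7 were lower (23.3%), with a median of -0.018. Over all genes, the lower calls were 0.252% of tested E001 parts and 1.65% of those with a later number. The higher calls over all genes were 5.44% and 3.83%, with medians of 0.051 and 0.036. The 2 splits overlap: 88.2% of the listed member E001 parts on this strand were tested at 48 h, against 34.4% with a later number. Over all genes these shares were 20.9% and 10.6%. The width matched a GENCODE M21 exon in the same gene in none of the 10 lower first parts and 1 of the 9 higher ones, and in 5 of all 87 member first parts (5.75%). The split by number was chosen after the values were seen.

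The class of terminal parts held 59 listed parts in 58 of the 82 genes. At 72 h, 13 of 59 tested terminal parts were lower, where 8.22% of all terminal parts were lower, and 2 were higher, where 0.596% of all were higher. At 48 h, 8 of 42 were lower, where 2.93% of all were lower, and 1 was higher, where 0.177% of all were higher. Member terminal parts had a median of -0.0039 on the log2 scale at 48 h and of -0.012 at 72 h in the authors' deposited table, against -0.021 and -0.044 for all terminal parts. The lower calls tested at both times were all under 0.1 in size, from -0.020 in Rps29 to -0.071 in Rpl11. The 2 higher ones at 72 h were those of Rps3 (0.089) and Rpl34 (0.037).

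Unclassified parts, of which 82 of 233 (35.2%) matched a GENCODE M21 exon of their gene in width, had 23 of 232 higher at 72 h, where 1.8% of all were higher, and 23 lower, where 0.665% of all were lower. At 48 h, 6 of 181 were higher, where 0.699% of all were higher, and 10 lower, where 0.396% of all were lower. The counts of higher and lower calls were therefore equal in this class at 72 h, and their median absolute change was 0.019 in the authors' deposited table.

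Detained introns are introns kept in otherwise spliced polyadenylated RNA. None of the 6 tested in these genes was called at 72 h, where 14.8% of all detained introns were higher and 0.498% lower. Their log2 fold changes at 72 h in the authors' deposited table were 0.42 for Rpl12 E013 (authors' adjusted p 0.066), 0.12 for Rpl7 E010 and 0.026, -0.15 and -0.17 for Rpl24 E007, E011 and E014. Rpsa E003, in the gene of the laminin receptor protein of the small subunit, stood at -0.0012. Their median was 0.012, against 0.18 for all detained introns. At 48 h only Rpl12 E013 (-0.087, authors' adjusted p 0.67) and Rpsa E003 (-0.045) were tested, and neither was called, where 2.12% of all were higher and 0.529% lower. With 6 parts in 4 genes, absence of a call does not show that these introns did not change.

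Intronic polyadenylation parts numbered 10 at 72 h, of which 1 was called: Rpl17 E008 rose by 0.45 (authors' adjusted p 0.017) in the authors' deposited table, where 3.84% of all such parts were higher and 2.9% lower. The other 9, in Rpl21, Rpl23a, Rpl4, Rpl5, Rpl7l1, Rps18 and Rps3, ranged from -0.13 (Rpl4 E008) to 0.18 (Rpl7l1 E010). At alternative 3′ splice sites, 2 of 3 tested parts were higher and none lower at 72 h, where 2.75% of all such parts were higher and 0.306% lower. Of these, Rpl9 E014 is given above, and Rpl36 E003 (chromosome 17, 56753104 to 56753202, plus strand) rose by 0.36 at 72 h (9.23e-07) and stood at 0.19 (authors' adjusted p 0.150) at 48 h. At alternative 5′ splice sites, 1 of 16 tested parts was higher at 72 h (Rps27a E011, authors' adjusted p 0.00015) and none lower, where 2.51% of all were higher and 0.573% lower. The only cassette exon, Rps23 E004, stood at -0.0035 and -0.0024 at the 2 times, with neither called.

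**Figure D4:**
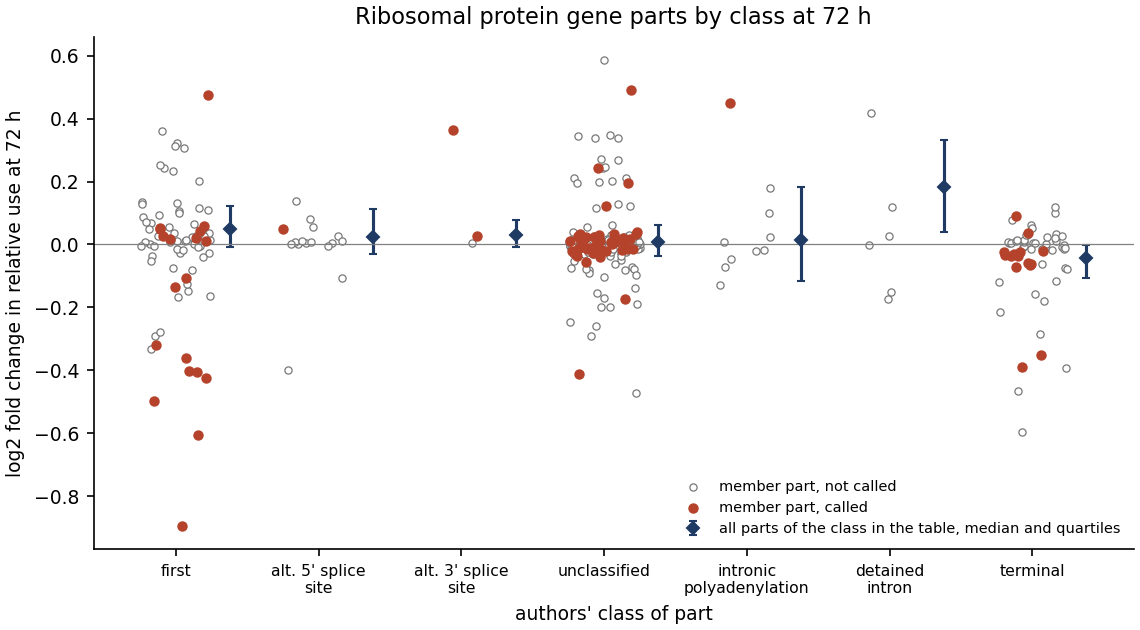
Member parts at 72 h are grouped by the authors' class on the horizontal axis, with the log2 fold change in relative use on the vertical axis; red points are called, open points are not, and the blue diamond with bars gives the median and quartiles of all parts of that class in the table. The single cassette and alternative polyadenylation parts are left out. Called first parts reach from -0.90 to 0.47, and the 6 detained introns have no red point, beside a median of 0.18 for all detained introns.

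Position along the gene ordered the changes in part of the set. Parts were split into 5′ and 3′ sides at the middle of their order in the 74 genes with at least 3 listed parts. At 48 h the median log2 fold change was 0.011 on the 5′ side and -0.0040 on the 3′ side in the authors' deposited table, a difference of 0.015 against 0.027 over all genes. At 72 h the medians were 0.012 and -0.0062, a difference of 0.018 against 0.040. At 48 h, 5 of the higher calls lay on the 5′ side and 3 on the 3′ side, a 5′ share of 62.5% against 84.5% over all genes. At 72 h, 28 of the higher calls lay on the 5′ side, 7 on the 3′ side and 2 in the middle. The 5′ share was then 75.7% against 68.0% over all genes. Of the lower calls at 48 h, 16 lay on the 3′ side, 1 on the 5′ side and 1 in the middle, and the 3′ share was 88.9% against 90.4% over all genes. Of the lower calls at 72 h, 29 lay on the 3′ side, 11 on the 5′ side and 4 in the middle, and the 3′ share was 65.9% against 86.2% over all genes. Among parts tested at 48 h, 27 of the lower calls at 72 h lay on the 3′ side and 4 on the 5′ side, a 3′ share of 77.1% against 93.1% over all genes.

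Genes with calls in both directions mostly had the higher part upstream. At 72 h this held in 13 of 17 genes (76.5%) in the authors' deposited table, against 413 of 474 (87.1%) over all genes, and among them were Rpl11, Rpl12, Rpl23a, Rpl32, Rpl41, Rpl6, Rpl7l1, Rps15a, Rps16, Rps25 and Rps29. The order was the reverse in Rpl13a, Rpl34 and Rps3, and mixed in Rps23. At 48 h it held in 6 of 7 genes, among them Rpl10, Rpl14, Rpl6, Rps23 and Rps29, with Rpl9 in reverse, against 61 of 69 over all genes. Rps29 is counted at both times, although its 2 listed parts are not independent. In 70 genes with parts tested at both times, the 5′-most part stood above the 3′-most part in 45 (64.3%) at 48 h and 48 (68.6%) at 72 h, against 78.5% and 81.0% over all genes. The median difference between the 2 ends was 0.015 and 0.018, against 0.046 and 0.060.

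A fall at every step from 5′ to 3′ was seen, among 41 genes with at least 4 parts tested at both times, in 9 at 48 h (22.0%) and in 7 at 72 h (17.1%) in the authors' deposited table. They included Rpl38, Rps13, Rps7, Rps15a, Rps25, Rps27a and Rps27l at 48 h. At 72 h they included Rps10, Rps15a, Rps25, Rps27a and Rps27l. The shares over all genes were 4.6% and 5.98%, of 4061 genes, but a gene with fewer tested parts has fewer steps to fall through. Over all genes of each set, members had a median of 5 listed parts against 7. The number of tested parts in the genes compared here was not set side by side.

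Calls at 72 h in parts without a test at 48 h were large, in these genes as over the table. Among the 123 such parts, 12 were called (9.76%), 2 higher and 10 lower, where 2.15% of all such parts were called, 1.67% higher and 0.478% lower. Their sizes ran from 0.32 to 0.90 in the authors' deposited table, with a median of 0.42 against 0.44 for all such calls. The 287 parts with a test at 48 h held 72 calls at 72 h, 36 in each direction (25.1%, where 5.77% of all such parts were called, 3.3% higher and 2.47% lower), with a median size of 0.026. Of the 21 called changes of at least 0.1 at 72 h, 14 were lower and 7 higher, in 20 genes; 12 of the 21 had no test at 48 h and 11 were first parts. Whether a part lacked a test because of few reads was not tested, because the table holds no counts.

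Member genes and parts are small. The median span of the listed parts was 2580 bases against 13479 over all genes, and the median part width was 70 bases against 124, from 1 base to 11024. Parts under 25 bases made up 27.1% of member parts and 8.31% of all parts. Of the 82 genes, 59 have named pseudogenes in GENCODE M21, 296 in all, and how reads shared with such copies, or with antisense genes, were counted is not given by any source used here, so values of these genes are uncertain to that extent. Genes with a small nucleolar RNA gene inside had called parts at 72 h in 21 of 30 tested genes, and genes without one in 26 of 50. Over all tested genes of the table the share at 72 h was 19.1%. The shares of tested parts called in the 2 groups were 22.5% and 19.1% at 72 h and 9.68% and 9.82% at 48 h. Over all tested parts of the table they were 3.6% at 72 h and 1.62% at 48 h. These differences in share were not tested.

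Other genes of protein synthesis and turnover give a scale for the counts, from lists assembled with results of these data known. Translation factor genes had a called part in 14 of 39 tested genes at 48 h and 22 of 39 at 72 h, with higher parts in 16 and lower parts in 17. Ribosome biogenesis genes had 6 of 59 and 30 of 60, with 24 and 14. Proteasome subunit genes had 11 of 34 and 19 of 38, with 15 and 7. Mitochondrial ribosomal protein genes had 2 of 55 and 13 of 61 (21.3%), with 9 and 4, close to the 19.1% of all genes at 72 h. Over all tested genes, 7.12% had a called part at 48 h, and at 72 h 13.7% had a higher part and 9.44% a lower part. At 72 h the median size of called parts was 0.050 for translation factors, 0.13 for biogenesis, 0.065 for the proteasome and 0.071 for mitochondrial ribosomal proteins in the authors' deposited table. The cytosolic ribosomal protein genes had the largest share of tested parts called of these 5 groups and the smallest median size at 72 h. By genes, they had a called part in 22.8% at 48 h, below translation factors (35.9%) and the proteasome (32.4%). At 72 h their share of genes was 58.8%, near the 56.4% of translation factors. No test of these differences was made.

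Named from these lists by lowest adjusted p at 72 h in the authors' deposited table were, for translation, Eef1a1 E023 (0.041, 3.92e-14), the elongation factor that delivers aminoacyl-tRNA, Eif4h E004 (-0.18) and Naca E001 (0.037). For biogenesis they were Rrp1b E026 (-0.21), Gnl3 E027 (0.22) and Brix1 E001 (-0.45). For the proteasome they were Psmb10 E010 (0.58, 4.92e-53), an immunoproteasome subunit, Psmb7 E009 (0.033) and Psma2 E002 (0.050). For the mitochondrial ribosome they were Mrpl24 E002 (0.18), the detained intron Mrps11 E006 (0.49) and Mrps25 E007 (0.068). Among first parts, 1 of 30 was lower at 72 h in the translation list and none in the other 3 lists (0 of 49, 0 of 27 and 0 of 44). With 0.628% of all first parts lower, lists of this size would hold few or no such parts at the whole-table rate.

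**Figure D5:**
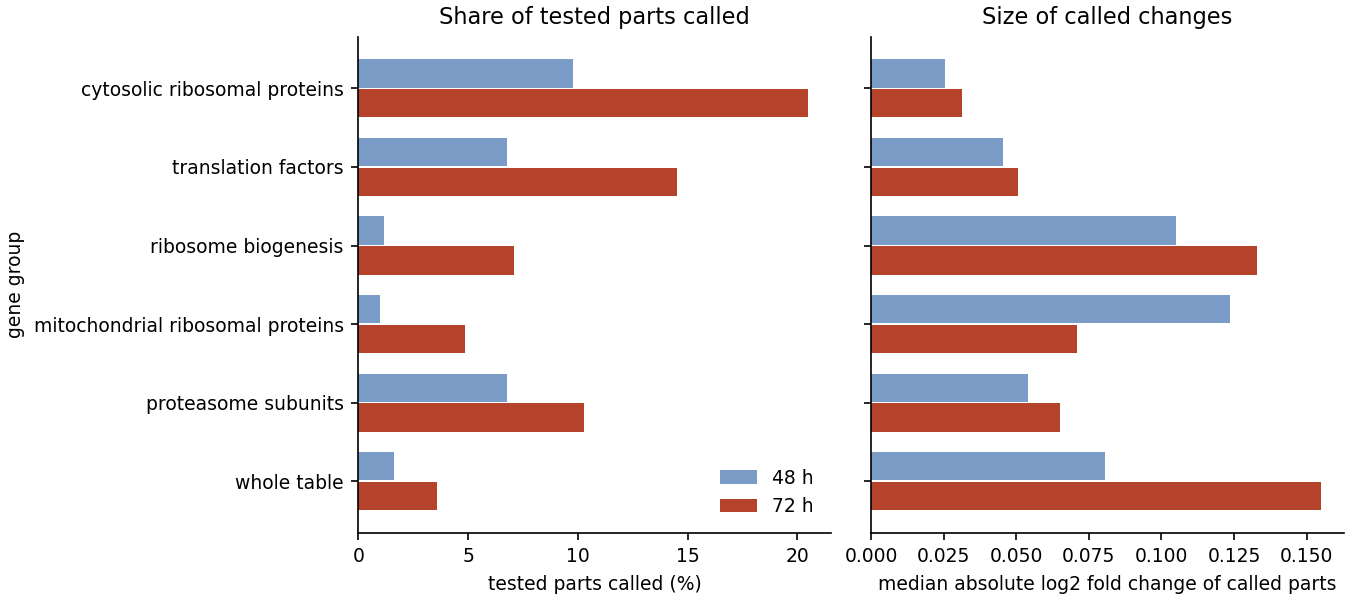
The left panel gives the percent of tested parts called and the right panel the median absolute log2 fold change of called parts, for 5 gene groups and the whole table, at 48 h (blue) and 72 h (red). At 72 h the cytosolic ribosomal protein genes have the highest share called, 20.5%, and the smallest median size, 0.031. The mitochondrial group has only 2 called parts at 48 h behind its bar.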

How the data were processed

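RNA was measured in 12 libraries of 2 clones, 4 per group. The submitters' processing notes name STAR 2.4.1d and mm9, without their roles. The authors deposited 1 table of DEXSeq comparisons, which hold for each exon part and time the adjusted p-value and the log2 fold change, per the file headers. The counting step, the annotation, the DEXSeq version, any shrinkage and any term for clone were not given in the sources used here. No counts per library were used, so no test of differences, interval or depth could be computed. RNA integrity numbers ran from 8.9 to 9.3, per the labels.

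From the deposited values, members were selected by gene name, calls were taken at the authors' adjusted p below 0.05, and parts were ordered 5′ to 3′ by strand, with sides in genes of at least 3 listed parts. Members' counts and medians were set beside those of all parts. A gene's parts are not independent, since a lower share of one raises the others. Alternatives were thresholds of 0.01 and 0.10, parts tested at both times, no paralogues, Fau and Gnb2l1 added, unclassified parts only, widths of at least 25 bases, sides by span, and at least 5 parts.

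Start windows came from RefSeq promoters (GRCm38.p6), and mm9 coordinates are those of the table. Small nucleolar RNAs, pseudogenes and exon widths came from GENCODE M21. Named were every member with a called part, with all its calls, the largest uncalled change per time, member detained introns, cassette exons and intronic polyadenylation parts, up to 3 genes per list and Cdk13; a few members are counted but not reported by name here. The members and lists were chosen with earlier results of these data known. Python 3.11.15, pandas 2.3.3 and numpy 2.4.6 were used, and the scripts were tested on simulated data.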

Additional observations from a re-analysis of the deposited data

How the results depend on the processing

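Of the 52 values recomputed under other settings, 43 stayed within 1.5 times the reported value and 9 moved further. Some of the 43 could not move. Every member part tested at 48 h was also tested at 72 h, and every member part with a value had an adjusted p. Settings that keep only such parts therefore returned the reported value at 48 h, or at both times. At an adjusted p below 0.01, 13 parts in 8 genes were called at 48 h (28 in 18 at 0.05) and 49 parts at 72 h (84 at 0.05). At an adjusted p below 0.10, 43 parts were called at 48 h. With unclassified parts only, 16 parts were called at 48 h and 46 parts in 30 genes at 72 h, and the median log2 fold changes were 0.00015 at 48 h and -0.0012 at 72 h, against 0.0017 and 0.0014 with all classes; the median at 72 h thus changed sign, near 0 in both settings, and this setting has fewer parts by construction. The difference between 5′ and 3′ sides with only parts tested at 48 h, an alternative chosen after seeing the data, was 0.015 at both times. For 48 h this is the reported value itself, since the setting keeps the same parts. No paired analysis was possible because the table gives the authors' comparison and no value per library, and for that reason no library could be left out. Depth per library is unknown, so no value here can be weighed by it.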
